A study of Solanum lycopersicum x Solanum pennellii and Solanum lycopersicum with 7 samples.

Results

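A stretch of tomato chromosome 4 in which neighbouring genes differed between the leaves of 2 introgression lines is described here through its gene counts. Its members are the genes with identifiers from Solyc04g011680 to Solyc04g014490 that had at least 10 counts summed over 6 libraries, and 62 genes of the 34725 listed met this rule. Within it, 11 successive identifiers from Solyc04g011780 to Solyc04g011880, here called the run, are set against the other 51 members. The block was placed by its density of genes that differed at least 2-fold between IL2-6 and IL3-2, and the run by its direction in the same contrast, so every difference between the lines given for the members is a description, with no test.

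The plants were field-grown IL2-6, labelled as having enhanced biomass production, and IL3-2, each with 3 leaf RNA libraries. Both are labelled as Solanum lycopersicum x Solanum pennellii. A control, M82, has 1 library with a deposited variant list only, which was not used here. Nothing in the labels tells whether libraries of 1 line come from different plants.

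An introgression line carries a segment of a wild relative's genome in the background of a cultivated variety, here M82, and is made by repeated backcrossing with selection for the segment. The names IL2-6 and IL3-2 point to segments on chromosomes 2 and 3, and neither name refers to chromosome 4. In the tomato annotation the digits before the letter g in an identifier give the chromosome, and those after it the order along the chromosome. The files do not pair the identifiers with gene names, functions or positions, so the members carry their identifiers only.

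The IL2-6 libraries held 18479252 to 21320790 gene counts and the IL3-2 libraries 28828109 to 40146308. Levels are given as CPM, counts per 1000000 of the library total scaled by TMM factors, and they are not per gene length, so they are compared between libraries and not between genes. Of the 6 libraries, only those of IL3-2 have a sequencing lane and flow cell in their descriptions. Standard single-end and stranded paired-end preparation kits are both mentioned, without saying which libraries each was used for. Line and library preparation can therefore not be told apart for any gene below, and counts are uncertain where genes on opposite strands overlap.

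The run was higher in every IL2-6 library than in every IL3-2 library. Its 11 members together had 45.6, 46.7 and 40.9 CPM in IL2-6 replicates 1, 2 and 3, against 8.67, 7.27 and 8.17 CPM in IL3-2 replicates 1, 2 and 3. The groups did not overlap, for the sum or for any single member, where 32.8% of all genes tested were higher in IL2-6 without overlap; the run was chosen by this direction. For the sum, the lowest IL2-6 library was 4.72-fold above the highest IL3-2 library. The means were 44.4 ± 3.06 CPM in IL2-6, against 8.04 ± 0.71 CPM in IL3-2 (SD, n = 3 each), a ratio of 5.53. In whole leaves, fewer cells of a type and less RNA per cell cannot be told apart. Set against the other members in the same library, which needs no scaling, the run had 1.85, 1.92 and 1.68 counts per 100 counts of the rest in the IL2-6 libraries and 0.427, 0.348 and 0.399 in the IL3-2 libraries. By summed CPM the rest was itself 1.19-fold higher in IL2-6, which makes this contrast between the lines smaller.

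**Figure D1:**
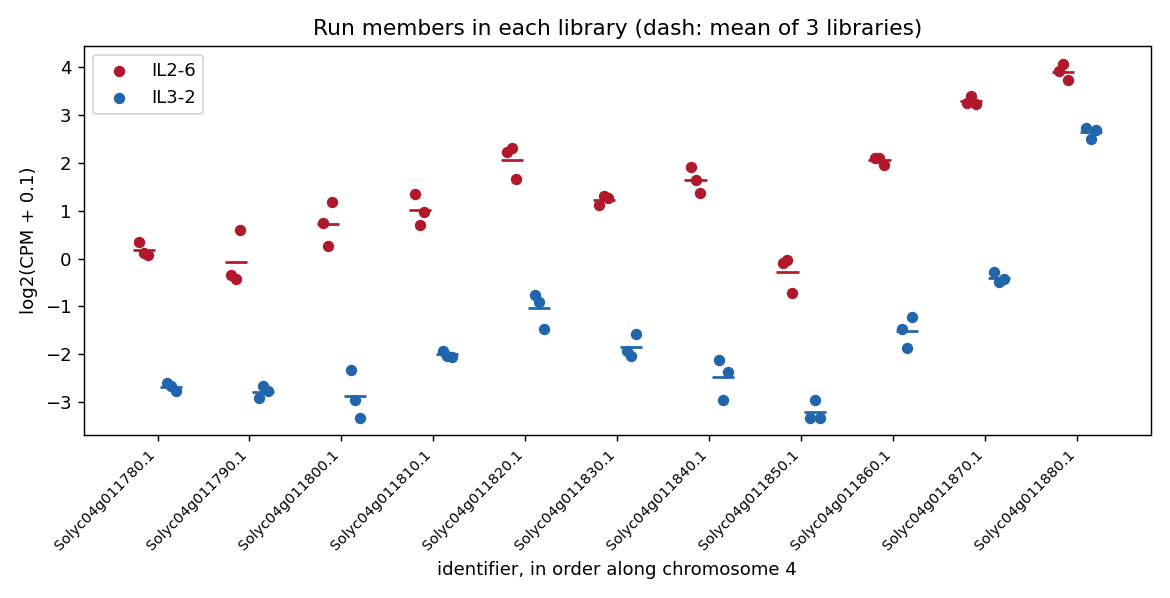
Levels of the 11 run members in identifier order, as log2(CPM + 0.1), with 1 point per library and a dash at the mean of the 3 libraries of IL2-6 (red) and IL3-2 (blue). Every IL2-6 point lies above every IL3-2 point of the same gene, and the gap is narrowest for the last member, Solyc04g011880.1, with 14.9 against 6.15 CPM.

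The first 3 members had few counts in either line. Solyc04g011780.1 had 24, 17 and 19 counts in the IL2-6 libraries and 2 counts in each IL3-2 library. Its level was 1.04 ± 0.117 CPM in IL2-6, against 0.0571 ± 0.0092 CPM in IL3-2 (SD, n = 3 each), a ratio of 18.3. The next identifier, Solyc04g011790.1, had 14, 11 and 28 counts in IL2-6 and 1, 2 and 2 in IL3-2, a ratio of mean CPM of 19.8. Its neighbour Solyc04g011800.1 had 32, 19 and 43 counts in IL2-6 and 3, 1 and 0 in IL3-2, a ratio of 38. For this adjacent pair, IL2-6 replicate 3 was the highest library, while Solyc04g011780.1 was highest in replicate 1 by CPM.

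Among the next 4 members, Solyc04g011810.1 had 50, 26 and 37 counts in IL2-6 and 5, 5 and 6 in IL3-2, a ratio of mean CPM of 12.9. Solyc04g011820.1 had 93, 83 and 61 counts in IL2-6 and 15, 15 and 11 in IL3-2, and its ratio of 10.5 was the smallest of the first 10 members. For Solyc04g011830.1 the counts were 42, 41 and 46 in IL2-6 and 5, 5 and 10 in IL3-2, with levels of 2.26 ± 0.175 and 0.182 ± 0.048 CPM (SD, n = 3 each). In these 3 genes the spread within a line was small beside the gap between the lines. Counts of Solyc04g011840.1 were 75, 52 and 49 in IL2-6 and 4, 1 and 4 in IL3-2, a ratio of 36.

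Solyc04g011850.1 was the run member with the fewest counts, 17, 15 and 10 in IL2-6 and 0, 1 and 0 in IL3-2. Its ratio over the summed libraries was 78.4, with an exact 95% counting interval of 13.3 to 3168, so the size of this difference is poorly known. Such intervals cover counting error only. Solyc04g011860.1 had 85, 72 and 75 counts in IL2-6 and 8, 6 and 14 in IL3-2, with levels of 4.05 ± 0.232 and 0.256 ± 0.079 CPM (SD, n = 3 each). Solyc04g011870.1 had 192, 178 and 184 counts in IL2-6 and 22, 21 and 27 in IL3-2, or 9.69 ± 0.605 and 0.657 ± 0.058 CPM (SD, n = 3 each). The ratios of these neighbours, 15.8 and 14.7, lie close to each other.

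The last member stood apart from the other 10. Solyc04g011880.1 had 306, 287 and 260 counts in IL2-6 and 199, 191 and 269 in IL3-2, with levels of 15, 16.7 and 13.1 CPM against 6.54, 5.55 and 6.37 CPM. The libraries of the lines did not overlap, but the ratio was 2.43, against 10.5 to 76.1 with a median of 17 among the 10 members before it. It took 33.6% ± 1.99 of the run's counts in IL2-6 and 76.6% ± 1.31 in IL3-2 (SD, n = 3 each). Without it, the summed level of the run was 30.6, 30 and 27.8 CPM in IL2-6, against 2.14, 1.71 and 1.8 CPM in IL3-2, a ratio of 15.6 in place of 5.53. This split was made after the values had been seen.

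**Figure D2:**
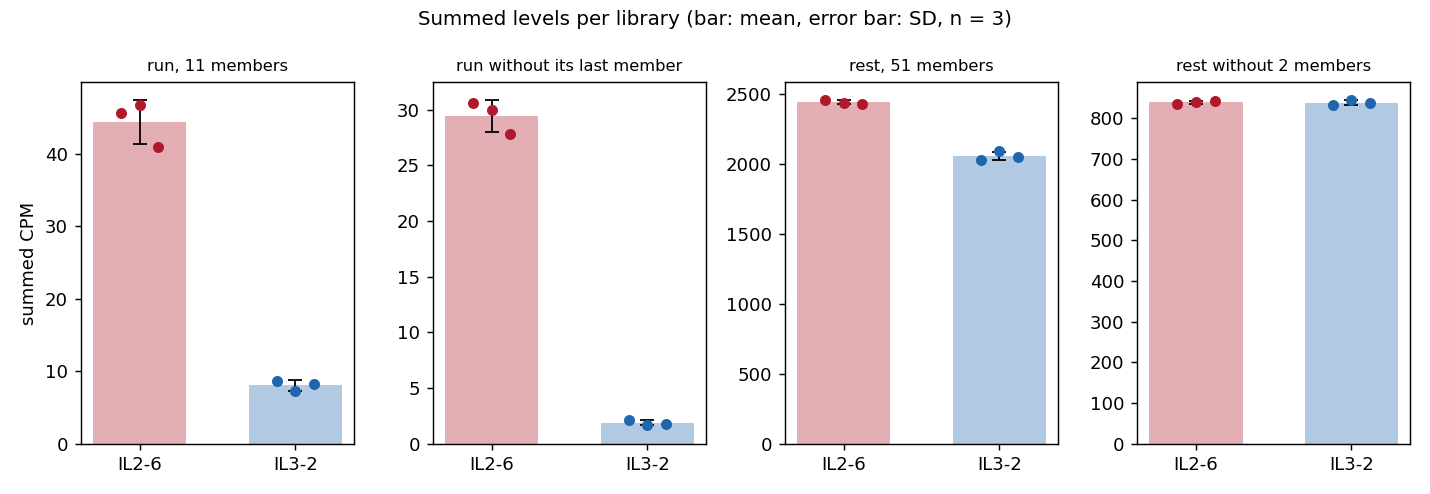
Summed CPM per library for the run, the run without Solyc04g011880.1, the other 51 members and those without Solyc04g014400.2 and Solyc04g012120.2, with IL2-6 left of IL3-2; points are libraries, bars their mean and error bars the SD (n = 3). The run and its first 10 members are apart between the lines (15.6-fold for the 10), the rest differs by 1.19-fold, and without its 2 members with most counts the rest is level, at 839 and 838 CPM. Of these 2, Solyc04g014400.2 was 1.51-fold higher in IL2-6, while Solyc04g012120.2 overlapped between the lines.

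The direction reversed at the near end of the run, while at the far end the ratio was already smaller at the last run member. Solyc04g011770.2, the identifier just before it, differed in the other direction, with 9, 7 and 8 counts in IL2-6 and 109, 123 and 131 in IL3-2. Its level was 0.418 ± 0.0205 CPM in IL2-6, against 3.42 ± 0.275 CPM in IL3-2 (SD, n = 3 each), 8.19-fold higher in IL3-2. Just after the run, Solyc04g011890.1 had no count in IL2-6 and 4 counts in IL3-2 and did not reach the minimum for a member. The next member, Solyc04g011900.2, had 118, 127 and 124 CPM in IL2-6, against 102, 98.3 and 94.1 CPM in IL3-2, a ratio of 1.25. Leaving out Solyc04g011890.1, the ratios from the last but one run member to this gene were 14.7, 2.43 and 1.25.

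The first 10 run members had a similar order of shares in both lines at very different totals. They summed to 1690 counts in the IL2-6 libraries and 200 in the IL3-2 libraries. Solyc04g011870.1 made up 32.8% of these counts in IL2-6 (exact 95% interval 30.5% to 35.1%) and 35% in IL3-2 (28.4% to 42%). Solyc04g011860.1 made up 13.7% in IL2-6 (12.1% to 15.5%) and 14% in IL3-2 (9.51% to 19.6%). For 9 of the 10 members the intervals of the lines overlapped, which with so few IL3-2 counts leaves room for sizeable differences. The exception was Solyc04g011840.1, with 10.4% in IL2-6 (9% to 12%) and 4.5% in IL3-2 (2.08% to 8.37%). Across the 10 genes, the log2 shares of the lines had a Pearson correlation of 0.9 and the shares a Spearman correlation of 0.93. These describe 10 genes that share libraries, each gene's length enters its share in both lines, and no test is given.

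**Figure D3:**
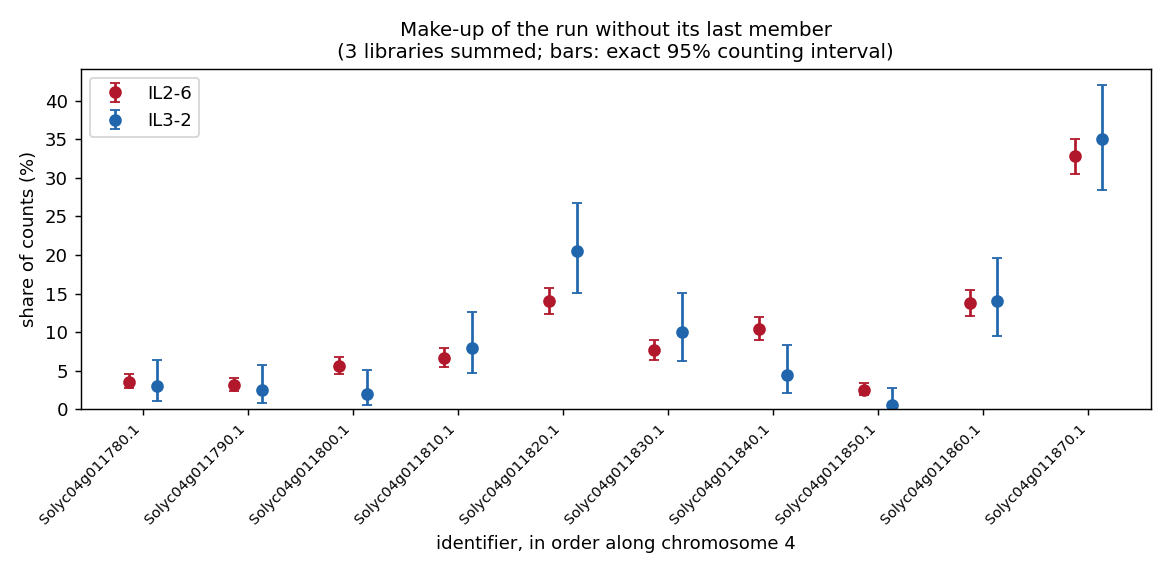
Share of each of the first 10 run members in their summed counts, in percent, for the 3 IL2-6 libraries (red, 1690 counts) and the 3 IL3-2 libraries (blue, 200 counts), with exact 95% counting intervals. The shares follow each other along the run, with the highest share at Solyc04g011870.1 in both lines and intervals that do not overlap only at Solyc04g011840.1.

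The members were not picked by the spread between libraries of a line as such. The 2-fold calls that placed the block need an adjusted p, though, which depends on this spread. The values below are therefore not independent of the choice. For the sum of the first 10 run members, the coefficient of variation between libraries was 4.91% in IL2-6 and 11.8% in IL3-2. The sum of the rest of the block, with many more counts, had 0.611% and 1.48%. For single run members the median coefficient of variation was 19.7% in IL2-6 and 27.5% in IL3-2, against 6.92% and 6.48% over the genes tested. Summed over the libraries of a line, the median count was 129 in IL2-6 and 16 in IL3-2 for run members, against 815 and 1522 over the genes tested. Relative to counting error, the variance between libraries had a median of 2.14 per degree of freedom (chi-square of the counts) for run members in IL2-6 and 0.894 in IL3-2. Over all genes tested it was 1.24 in IL2-6 and 1.79 in IL3-2. No IL2-6 library was above or below the line mean in every run member: 8, 7 and 3 of the 11 members were above their line mean in replicates 1, 2 and 3. By CPM, most run members were lowest in IL2-6 replicate 3. They were Solyc04g011780.1, Solyc04g011820.1, Solyc04g011840.1, Solyc04g011850.1, Solyc04g011860.1, Solyc04g011870.1 and Solyc04g011880.1. Only Solyc04g011790.1 and Solyc04g011800.1 were highest in it.

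Features other than the levels were recorded for the run and the rest as well, without a test. All 11 identifiers listed between its ends reached 10 counts, against 51 of the 71 other identifiers of the block (71.8%) and 67.8% of all identifiers. A run chosen for its differences must have counts, so this share was in part set by the choice. Each of the 11 identifiers carries version number 1 of its gene model, the digit after the point, where 23 of the 51 other members (45.1%) and 38.4% of all identifiers with at least 10 counts do. Whether these gene models are related in sequence was not analysed here. If they are near-identical copies, reads that match several of them could have been split or left out in the counting.

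The other 51 members went in both directions, more of them lower in IL2-6. By mean CPM, 17 of the 51 were higher in IL2-6 and 34 higher in IL3-2, where of all identifiers with at least 10 counts 47.1% and 52.9% were. The libraries of the lines did not overlap in 11 members higher in IL2-6 and 25 higher in IL3-2, against 30.4% and 35.1% of these identifiers. The minimum of 10 counts is summed over both lines, and the IL3-2 libraries are larger. A gene counted only in IL3-2 thus reaches it at a lower CPM than one counted only in IL2-6. Of the 62 members, 50 passed the filter on low counts (11 of the run and 39 of the rest) and entered edgeR's quasi-likelihood test over 20823 genes. By log2 fold change, 16 of these 39 were higher in IL2-6 and 23 higher in IL3-2, where 10182 and 10641 of all genes tested were. At a Benjamini-Hochberg adjusted p under 0.05, 38 of the 50 were called, where 63.3% of all genes tested were. In the rest, 10 were called higher in IL2-6 and 17 higher in IL3-2, where over all genes the shares were 30.4% and 33.0%. With raw library totals in place of TMM scaling these numbers in the rest were 7 and 21, where over all genes the shares were 19.1% and 45.9%. Without the filter, when all 51 entered, they were 10 and 24 (all genes, 24.8% and 28.1%). Requiring a 2-fold difference as well left 20 of the 50 members, against 17.0% of all genes. The run held 11 of the 13 that were higher in IL2-6 (all genes, 4.89%) and the rest held all 7 that were higher in IL3-2 (all genes, 12.1%). Without the filter the rest held 2 higher in IL2-6 and 14 higher in IL3-2 at 2-fold (all genes, 5.02% and 12.2%). Because the block was chosen from this contrast, nothing is read from these shares. Median log2 fold changes, IL2-6 minus IL3-2, were 3.93 in the run, −0.02 in the rest and −0.01 over all genes tested.

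**Figure D4:**
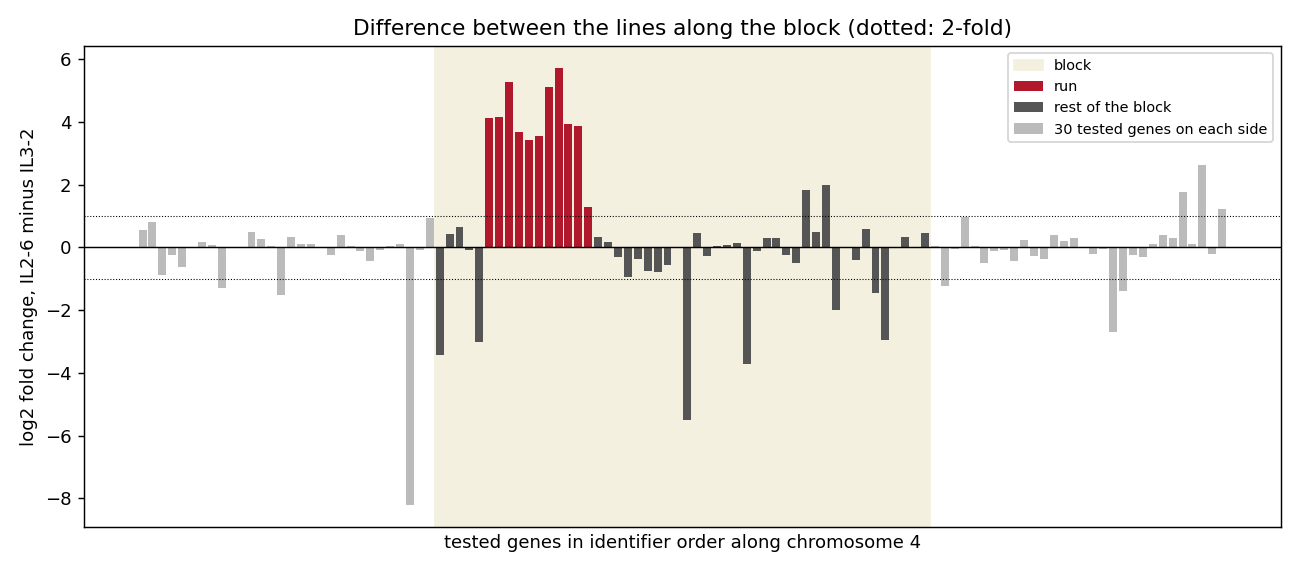
Log2 fold change, IL2-6 minus IL3-2, of tested genes in identifier order, for the run (red), the rest of the block (dark grey, shaded area) and 30 tested genes on each side (light grey), with dotted lines at 2-fold. The run is a solid stretch of positive values from 1.28 to 5.73 directly after a negative bar at −3.01, while the bars of the rest and of both sides change sign repeatedly. The rest also holds a stretch of negative bars only, from Solyc04g012010.2 to Solyc04g012140.1.

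The 7 members called at least 2-fold lower in IL2-6 are spread over the block, and 5 of them differed by 8.19-fold or more. Solyc04g013200.1 had 0.245, 0.175 and 0.302 CPM in the IL2-6 libraries and 3.81, 3.31 and 2.65 CPM in the IL3-2 libraries, 13.5-fold higher in IL3-2. Solyc04g011770.2, next to the run, is given above. For Solyc04g012140.1 the counts were 0, 0 and 1 in IL2-6 and 30, 30 and 46 in IL3-2, a ratio over the summed libraries of 56.8 toward IL3-2 with an exact 95% counting interval of 9.98 to 2265. In none of the 5 genes did the libraries of the lines overlap, where 34.9% of all genes tested were higher in IL3-2 without overlap. Solyc04g014450.1 had 5, 1 and 1 counts in IL2-6 and 34, 30 and 39 in IL3-2, 8.23-fold higher in IL3-2. The first member of the block, Solyc04g011680.1, had 1 count in each IL2-6 library and 18, 18 and 29 in the IL3-2 libraries, a ratio over the summed libraries of 11.6 toward IL3-2 with an exact 95% counting interval of 3.8 to 57.8.

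The 2 smaller differences of this direction lie near the far end of the block. Solyc04g014360.2 had 0.931, 0.408 and 0.555 CPM in IL2-6, against 2.89, 2.35 and 2.53 CPM in IL3-2, 4.11-fold higher in IL3-2. Solyc04g014420.2 had 8, 5 and 4 counts in IL2-6 and 30, 25 and 32 in IL3-2, a ratio of mean CPM of 2.79 toward IL3-2. In both genes each IL2-6 library was below each IL3-2 library by CPM.

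Outside the run, 2 members were at least 2-fold higher in IL2-6, and they lie near each other. Solyc04g014290.1 had 16, 16 and 11 counts in IL2-6 and 5, 10 and 7 in IL3-2, a ratio of mean CPM of 3.66. Solyc04g014330.1 had 12, 11 and 16 counts in IL2-6 and 5, 5 and 8 in IL3-2, a ratio of 4.08. By CPM the libraries of the lines did not overlap in either gene. Between them lie 2 other members. Solyc04g014310.1 went the other way, with no count in IL2-6 and 3, 7 and 1 counts in IL3-2. Solyc04g014320.1 had 13, 13 and 6 counts in IL2-6 and 9, 15 and 18 in IL3-2, and by CPM its libraries overlapped. These counts are low, and when every library was thinned to the smallest total neither of the 2 genes was called at 2-fold.

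After the run, 9 successive members from Solyc04g012010.2 to Solyc04g012110.1 were lower in IL2-6 than in IL3-2, with no overlap between the lines. Of all identifiers with at least 10 counts, 35.1% were higher in IL3-2 without overlap. This stretch of 9 members was picked out after its values were seen. Its first 5 members differed by less than 2-fold. Solyc04g012030.2 had 3.68 ± 0.272 CPM in IL2-6, against 7.07 ± 0.908 CPM in IL3-2 (SD, n = 3 each), 1.92-fold higher in IL3-2. Solyc04g012060.2 had 19.2, 17.9 and 18.4 CPM in IL2-6, against 30.9, 33.2 and 30.3 CPM in IL3-2, 1.7-fold higher in IL3-2. The other 3 were 1.23-fold, 1.27-fold and 1.67-fold higher in IL3-2. Next in order, Solyc04g012080.1 had 0, 1 and 0 counts in IL2-6 and 3, 11 and 12 in IL3-2, a ratio over the summed libraries of 13.9 toward IL3-2 with an exact 95% counting interval of 2.29 to 571. Solyc04g012090.1 had 0, 1 and 1 counts in IL2-6 and 7, 14 and 16 in IL3-2, a ratio of 9.92 with an interval of 2.56 to 84.9. Both have so few counts that they were left out of the test, as was Solyc04g012110.1. Between these lies Solyc04g012100.1, with more counts, which had 10, 11 and 9.38 CPM in IL2-6, against 15.2, 14 and 15.3 CPM in IL3-2, 1.46-fold higher in IL3-2. Solyc04g012110.1 had 0, 1 and 0 counts in IL2-6 and 8, 10 and 12 in IL3-2, a ratio of 16.1 toward IL3-2 with an interval of 2.67 to 656.

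Among the 5 members with the most counts, 3 were higher in IL2-6, by 1.51-fold or less, and 2 overlapped between the lines. Solyc04g014400.2 had 1188, 1117 and 1172 CPM in IL2-6, against 727, 818 and 764 CPM in IL3-2, a ratio of 1.51 with no overlap. Solyc04g012120.2 had 437, 482 and 416 CPM in IL2-6, against 472, 426 and 447 CPM in IL3-2, and the lines overlapped. Solyc04g014460.2 overlapped too, with 94.2, 94.4 and 108 CPM in IL2-6, against 100, 102 and 97 CPM in IL3-2. Solyc04g011690.2 had 90.6 ± 5.49 CPM in IL2-6, against 67 ± 5.99 CPM in IL3-2 (SD, n = 3 each), a ratio of 1.35, and Solyc04g011900.2, next to the run, is given above. The summed level of the rest was 2443 ± 14.9 CPM in IL2-6, against 2056 ± 30.4 CPM in IL3-2 (SD, n = 3 each), a ratio of 1.19. Without Solyc04g014400.2 and Solyc04g012120.2, left out after their values were seen, it was 839 ± 4.02 CPM in IL2-6, against 838 ± 7.03 CPM in IL3-2.

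**Figure D5:**
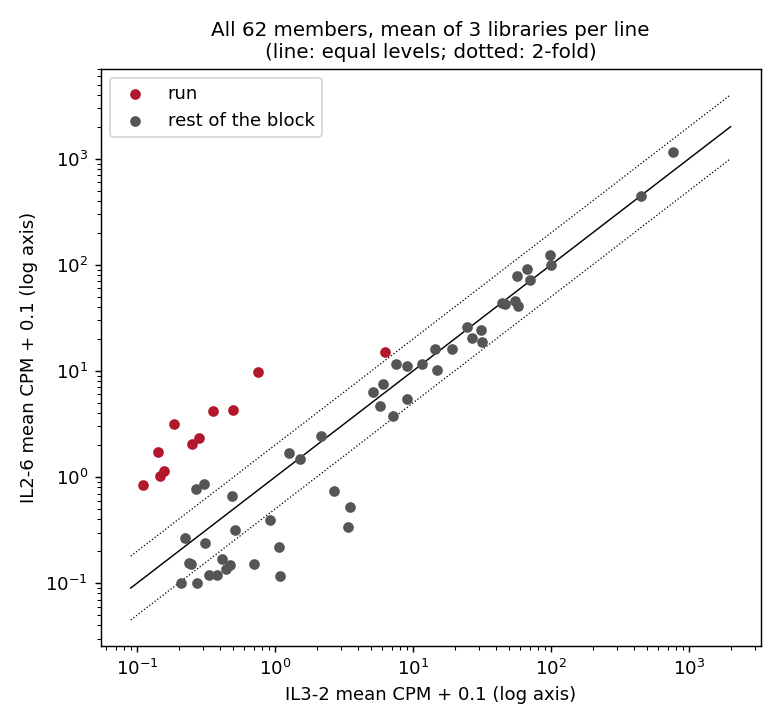
Mean CPM + 0.1 of all 62 members in IL2-6 (vertical, log axis) and IL3-2 (horizontal, log axis), with the run in red and the rest in dark grey, a line at equal levels and dotted lines at 2-fold. The run lies above the 2-fold line, members of the rest with high counts lie near the line of equal levels, and every member below the lower dotted line has a mean under 1 CPM in IL2-6.

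The 12 members that the filter left out of the test had 11 to 55 counts over all 6 libraries, and 11 of them had the lower mean CPM in IL2-6. Over all 2730 identifiers with at least 10 counts that were not tested, 66.7% had. Solyc04g014350.1 had no count in IL2-6 and 3, 7 and 9 counts in IL3-2, at least 3.39-fold lower in IL2-6 against 3 counts over its libraries. Solyc04g014310.1, given above, lies just over the minimum for a member with its 11 counts. Just under the minimum, Solyc04g012130.1 had 7 counts, 3 in IL2-6 and 4 in IL3-2. Of the 20 listed identifiers under the minimum, 7 had no count in any library.

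On either side the fold changes were mixed in direction. Among the 50 tested genes before the block, 7 were called at 2-fold, 1 higher in IL2-6 and 6 higher in IL3-2. Among the 50 after it, 9 were, 3 higher in IL2-6 and 6 higher in IL3-2. Over the rest of chromosome 4 the share was 14.7% of 1680 genes. Over all genes tested it was 17.0%, with 4.89% higher in IL2-6 and 12.1% higher in IL3-2. The identifier just before the block, Solyc04g011670.2, had 17.8, 17.7 and 19.2 CPM in IL2-6, against 9.62, 10.3 and 8.9 CPM in IL3-2, a log2 fold change of 0.93. The one just after it, Solyc04g014500.2, had 70.5 ± 6.54 CPM in IL2-6, against 68 ± 3.16 CPM in IL3-2 (SD, n = 3 each). A gene a few identifiers before the block, Solyc04g011640.2, named after its values were seen, had 0, 1 and 2 counts in IL2-6 and 498, 561 and 759 in IL3-2.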

How the data were processed

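Leaf RNA of IL2-6 and IL3-2 was measured in 3 libraries per line, grouped and numbered by their titles. The values the authors deposited are raw counts per gene identifier, 1 table per library. Per the submitters' processing notes, which give no roles, the tools were edgeR, HTSeq, TopHat2, Trimmomatic, SAMtools 1.9 and CASAVA 1.8.2. For the counting, the genome build, annotation and strand setting were not given in the sources used.

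All genes were fitted together with edgeR 4.0.16 in R 4.3.3: filterByExpr by line, TMM scaling (factors 0.928 to 0.958 in IL2-6 and 1.05 to 1.06 in IL3-2) and the quasi-likelihood test with the line as the only term. Log2 fold changes are IL2-6 minus IL3-2. Ratios in the text are ratios of mean CPM unless said otherwise. Where a line had 1 to 3 counts, the ratio of summed counts has an exact binomial interval from scipy 1.17.1. Where it had none, the bound uses 3 counts over its libraries. The test was also tried on simulated data built from this fit. These had no filter and far fewer changed genes than were called here, so they do not show how the test does in these data. Calls rest on the spread among these libraries alone, which can be technical.

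The members, the run and the lists were chosen with earlier results of these data known. 1 identifier of the range was left out and is not reported here. The rule for naming took all run members, members of the rest called at 2-fold with at least 1 CPM in the higher line and no overlap, the 5 members with the most counts, the one with the largest spread between libraries, which is Solyc04g014400.2 by chi-square, and the neighbours of block and run. Other members were named after their values were seen. The check of the leaf label against marker genes was not made, since the files do not pair identifiers with names. The variant list of M82 was not used, since the members have no coordinates in the files.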

Additional observations from a re-analysis of the deposited data

How the results depend on the processing

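The fit was repeated with DESeq2 1.42.0, limma-voom (limma 3.58.1), other scalings, no filter, thinned libraries, the replicate number as a block and each library left out. The run members that were tested stayed at least 2-fold higher in IL2-6 under each of these. Thinning to 18479252 counts left out Solyc04g011850.1. Members called at 2-fold numbered 16 to 27 (all genes, 16.1% to 18.3%), and 20 to 22 with a library left out (17.2% to 18.0%).

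With raw library totals the median of all genes moved to −0.174 on the log2 scale, and 29.4% of all calls were higher in IL2-6, against 48.0% with TMM scaling. The run's summed level was then 2.3 in place of 2.47 and its median 3.77 in place of 3.93. The rest's summed level was 0.09 in place of 0.25 and its median −0.18 in place of −0.02. Calls in the rest became 7 higher in IL2-6 and 21 higher in IL3-2, and 3 members of 50 changed sign. Without a filter the median of the rest was −0.3, over 51 members, with 10 called higher in IL2-6 and 24 higher in IL3-2. With a library left out it ran from −0.17 to −0.01, and the median of the run from 3.83 to 3.98.

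Settings chosen after seeing the data gave 3.97 for the summed run and 4.02 for its median without Solyc04g011880.1, and 0.00 for the summed rest without its 2 members with most counts. At least 1 and at least 60 counts gave 75 and 47 members. Solyc04g012120.2 and Solyc04g014460.2, at −0.01 and not called, changed sign in several settings (−0.07 to 0.04 and −0.08 to 0.03 with a library left out, and 0.00 for Solyc04g014460.2 after thinning). With raw library totals both were at −0.17 and called. The cause was not tested.

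Deviations from the line mean of same-numbered libraries had correlations from −0.119 to −0.008 across 20823 genes, so they were not taken as pairs. A fit with this number as a block called 37 members, 20 of them at 2-fold, where it called 12496 and 3536 of 20823 genes. Run members rest on few IL3-2 counts, which limits the precision of each ratio.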

Other observations

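Other stretches of adjacent tested genes were called at least 2-fold higher in IL2-6. On the 12 numbered chromosomes, 11 stretches of at least 4 such genes were found, and the run on chromosome 4 and one on chromosome 1, from Solyc01g007330.2 to Solyc01g007440.1, held 11 genes each. The median log2 fold change, IL2-6 minus IL3-2, was 3.93 in the run and 2.44 in that stretch. A stretch of 19 genes near the end of chromosome 1 was longer and had a larger median, 11.45. The next shorter, of 7 genes from Solyc03g078720.2 to Solyc03g078810.2, lies on chromosome 3 and had a median of 7.3. The remaining stretches, of 4 to 6 genes, had medians of 4.72, 2.9, 7.54, 1.66, 5.56, 2.16 and 3.11. The run was thus not the stretch with the largest median. The stretches are given as they were found, with no test of their length.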
